A study of Rattus norvegicus with 6 samples.

Results

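The endoplasmic reticulum (ER) chaperone and unfolded protein response genes followed in rat primary motor neuron cultures were Hspa5, Hsp90b1, Calr, Pdia4, Dnajb9, Dnajc3, Xbp1, Herpud1, Sel1l and Edem1. Each was matched by its symbol in the array's annotation, taking rows with a single symbol and, where a gene had several, the brightest. This found 9 of the 10 genes, with 1 row each, among 14506 genes with such a row. Edem1 had no such row in the annotation used and was not analysed here.

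Cultures received 1 microM camptothecin for 2 h, or DMSO, its solvent, for the same time. All came from rat embryos at embryonic day 13.5 and had spent 2 days in vitro, with 3 arrays per treatment. Samples are labelled as biological replicates, and how their cultures were kept apart is not stated, so a p-value here covers the spread among these samples, which may be technical. Strain, sex and genotype are not given in the labels. Camptothecin, from a tree, locks topoisomerase 1 onto the DNA strand it has cut, which stalls transcribing polymerases.

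Proteins destined for the cell surface or for secretion fold in the ER with the help of chaperones, disulphide isomerases and lectins. When unfolded proteins build up there, 3 membrane sensors (IRE1, PERK and ATF6) start the unfolded protein response, which slows translation and induces chaperones and degradation factors. IRE1 splices the mRNA of Xbp1 into the form that encodes the active transcription factor, ATF6 is released by cleavage, and PERK phosphorylates eIF2alpha. ER stress is much studied in motor neuron disease.

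Activated ATF6, together with NF-Y, binds the ER stress response element (ERSE), written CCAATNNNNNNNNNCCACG, and the related ERSE-II, written ATTGGNCCACG. Both were searched on both strands from 250 bases before to 50 bases after each RefSeq gene start of the rat assembly GRCr8, in 27457 genes, together with the XBP1-type element TGACGTGG. The 10 genes were all matched to a window there. Stretches that hold a match are shown as a description of the sequence, which was read without the array values. The elements are known from ER stress genes, so their share in this set is not separate support for it. They run 5' to 3' along the gene's strand, and the fixed letters of each match are in capitals.

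Hspa5, chr3:38452953-38453011, plus strand: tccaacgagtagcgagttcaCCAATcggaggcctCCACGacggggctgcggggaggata

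Hsp90b1, chr7:23012327-23012489, minus strand: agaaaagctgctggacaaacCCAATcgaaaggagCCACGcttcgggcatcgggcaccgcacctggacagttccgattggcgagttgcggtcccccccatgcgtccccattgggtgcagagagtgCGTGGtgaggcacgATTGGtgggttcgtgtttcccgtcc

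Calr, chr19:40213117-40213173, plus strand: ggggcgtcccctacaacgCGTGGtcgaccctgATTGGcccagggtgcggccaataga

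Dnajc3, chr15:102432514-102432572, plus strand: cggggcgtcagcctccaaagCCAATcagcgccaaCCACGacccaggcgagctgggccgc

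Xbp1, chr14:84604538-84604596, plus strand: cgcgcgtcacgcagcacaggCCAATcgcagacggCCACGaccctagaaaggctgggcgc

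Herpud1, chr19:10614801-10614851, minus strand: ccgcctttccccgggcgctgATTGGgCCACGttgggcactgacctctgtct

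The ERSE was present in 5 of the 10 windows, those of Hspa5, Hsp90b1, Calr, Dnajc3 and Xbp1, against 21 of all 27457 (0.0765%). Hsp90b1 held it at 2 places, once on the opposite strand, and in Calr it lay on the opposite strand. In Hspa5 the element ran from 43 to 25 bases before the start, in Xbp1 from 65 to 47 and in Dnajc3 from 133 to 115. ERSE-II was found in Herpud1, from 124 to 114 bases before the start, and in 15 windows (0.0546%) overall. TGACGTGG was in 0 of the 10 windows and in 0.637% of all windows. No match means only that these letters are not in the window. None of the 3 elements matched in Dnajb9, Pdia4, Sel1l or Edem1. Dnajb9 is shown because it had the largest change of the set. Its window held CCACG and CCAAT, in capitals, further apart and in the other order. On either strand, CCAAT was in 37.7% of all windows and CCACG in 32.5%, and each was in all 10 windows of the set. Their presence therefore does not set Dnajb9 apart from the rest of the set, and the stretch is not a match to the ERSE.

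Dnajb9, chr6:67002089-67002176, minus strand: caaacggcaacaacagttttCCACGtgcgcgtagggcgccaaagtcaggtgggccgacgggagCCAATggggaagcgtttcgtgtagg

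With camptothecin 5 of the 9 measured genes rose and 0 fell by limma (Benjamini-Hochberg adjusted p under 0.05 over all 29214 transcript clusters), where 11.3% of the 14506 genes rose and 9.35% fell. Dnajb9 rose 2.01-fold, and Herpud1, Pdia4, Hspa5 and Calr rose by smaller amounts. Sel1l, Hsp90b1, Dnajc3 and Xbp1 did not pass. The median log2 change of the 9 genes was 0.29, and that of all genes was 0.06. The count of falls stayed at 0 without adjustment of limma's p-values, since Xbp1 alone had a negative value. In 7 of the 9 genes all 3 camptothecin arrays lay above all 3 DMSO arrays, which held for 27.1% of all genes, and in 0 they lay below, against 15.5%.

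**Figure D1:**
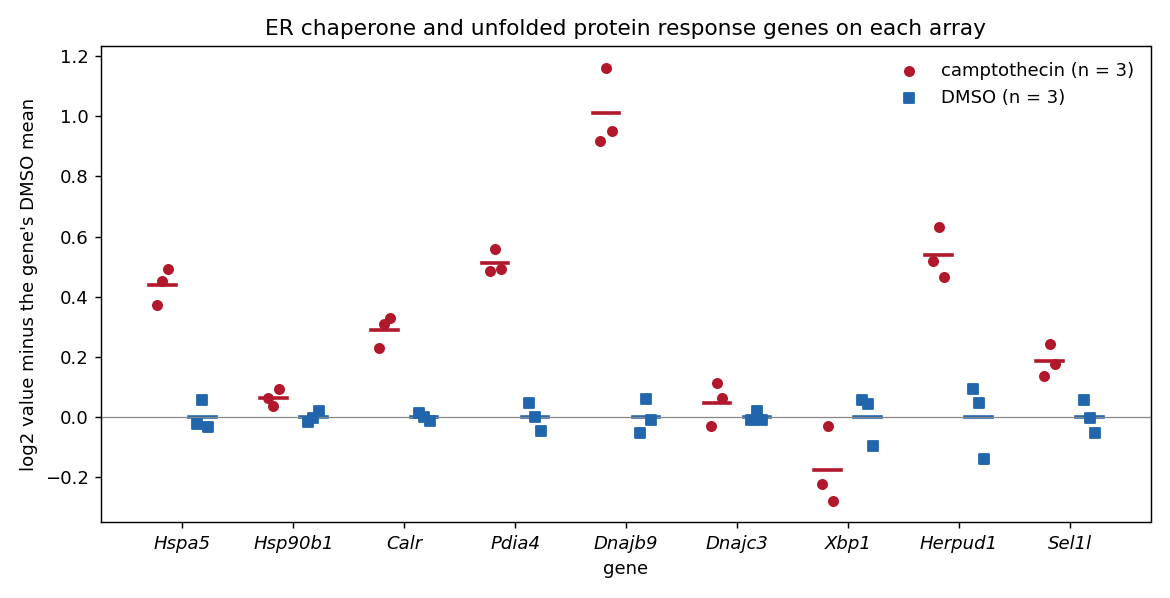
Deposited log2 value of each gene on each array minus that gene's DMSO mean (vertical axis), with 3 camptothecin arrays (circles, left) and 3 DMSO arrays (squares, right) per gene and the mean as a bar. Dnajb9 stands about 1.01 above its DMSO mean, Herpud1, Pdia4, Hspa5 and Calr are separated from DMSO, and the points of Dnajc3 and Xbp1 overlap those of DMSO.

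These background shares depend on how the arrays are put on a common scale. Of the genes called either way, 54.8% were higher in the deposited values, 36.1% after median centring of every array and 7.87% after centring on the mean of 67 ribosomal protein genes. That last scaling moves the median change of all genes to -0.19, against 0.06 as deposited, and subtracts the same amount from every gene. The mean of the ribosomal protein genes was itself higher with camptothecin (11.47, 11.56 and 11.47) than with DMSO (11.26, 11.25 and 11.24). With 1 array left out, 665 to 1348 genes were called higher and 917 to 1218 lower.

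Hspa5 encodes BiP, the main Hsp70 chaperone of the ER lumen, which also holds the sensors inactive. Its log2 values were 11.77, 11.85 and 11.89 with camptothecin, against 11.38, 11.46 and 11.37 with DMSO. The groups were separated by 0.32, more than the range within either. The change was 0.44 (SE 0.07, n = 3 per treatment, limma adjusted p = 0.00635), or 1.36-fold. It kept the call in 13 of 14 alternative analyses, and centring on ribosomal protein genes gave 0.19 (adjusted p = 0.0759).

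Hsp90b1 encodes GRP94, the Hsp90 chaperone of the ER, which folds integrins and Toll-like receptors. Its values were 12.50, 12.48 and 12.53 with camptothecin, against 12.42, 12.44 and 12.46 with DMSO. The groups did not overlap, yet they were only 0.02 apart. The change of 0.06 (SE 0.06, 95% interval -0.08 to 0.21, limma adjusted p = 0.53) did not pass, and it turned to -0.18 with ribosomal centring. The highest value on any array was 13.67, and whether signals this bright still respond in proportion was not tested.

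Calr encodes calreticulin, a lectin-like chaperone that binds glycoproteins and calcium in the ER. It read 10.98, 11.06 and 11.08 with camptothecin, against 10.76, 10.75 and 10.74 with DMSO. All camptothecin arrays were higher, by at least 0.22. Calr rose by 0.29 (SE 0.06, limma adjusted p = 0.0223), but the call was lost in 8 of the 14 alternatives. The adjusted p was 0.0504 without camptothecin replicate 2, 0.0747 without camptothecin replicate 3, 0.068 without DMSO replicate 1, 0.0784 without DMSO replicate 2 and 0.0748 without DMSO replicate 3. With median centring it was 0.063 and with ribosomal centring 0.608, where the change was 0.04.

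Pdia4 encodes ERp72, a protein disulphide isomerase that forms and rearranges disulphide bonds. Its values were 8.80, 8.87 and 8.80 with camptothecin, against 8.36, 8.31 and 8.27 with DMSO. The 3 camptothecin values were close together and all well above DMSO. Pdia4 rose by 0.51 (SE 0.06, limma adjusted p = 0.00288), or 1.43-fold, and passed in all 14 alternatives (changes of 0.27 to 0.53, adjusted p from 0.000326 to 0.0188).

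Dnajb9 encodes ERdj4, a J-domain co-chaperone that stimulates BiP and, in mammalian cells, brings BiP to IRE1 to restrain it. It read 8.98, 9.22 and 9.01 with camptothecin, against 8.01, 8.12 and 8.05 with DMSO. Camptothecin replicate 2 was the highest array and the other two were close together. Dnajb9 rose by 1.01 (SE 0.09, limma adjusted p = 0.000513), or 2.01-fold, the 43rd highest change among the 14506 genes. The gene passed in all 14 alternatives, with changes of 0.76 to 1.06 and adjusted p from 1.82e-05 to 0.0045.

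Dnajc3 encodes p58IPK, another J-domain co-chaperone of BiP, first known as an inhibitor of eIF2alpha kinases. Its values were 9.77, 9.91 and 9.87 with camptothecin, against 9.79, 9.82 and 9.79 with DMSO, and the groups overlapped. The change was 0.05 (SE 0.07, 95% interval -0.11 to 0.21, limma adjusted p = 0.681), and its sign turned with either centring, to -0.02 on the median and -0.20 on the ribosomal protein genes. The 2 J-domain genes thus gave 2.01-fold and 1.03-fold, and the intervals of their log2 changes (0.81 to 1.21 for Dnajb9) did not meet; the difference between them was not tested.

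Xbp1 encodes the transcription factor whose mRNA IRE1 splices. Its values were 8.28, 8.47 and 8.22 with camptothecin, against 8.56, 8.54 and 8.40 with DMSO. Camptothecin replicate 2 lay within the DMSO range and the other two lay below it. The change was -0.18 (SE 0.09, 95% interval -0.39 to 0.04, limma adjusted p = 0.23, unadjusted p = 0.0891), so the upper bound of 0.04 is below the rise of any of the 5 genes that passed. With ribosomal centring it was -0.42 (adjusted p = 0.00764). The array gives 1 value for the transcript cluster, so spliced and unspliced Xbp1 mRNA cannot be told apart.

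The remaining genes act in ER-associated degradation, which returns misfolded proteins to the cytosol for the proteasome. Herpud1, a membrane protein that organises the ubiquitin ligase complex and is itself short-lived, read 7.46, 7.57 and 7.41 with camptothecin, against 7.04, 6.99 and 6.80 with DMSO. The groups were 0.37 apart, although the DMSO arrays spread more than for the chaperones. Herpud1 rose by 0.54 (SE 0.09, limma adjusted p = 0.00769), or 1.45-fold, and passed in all 14 alternatives (0.29 to 0.59, adjusted p from 0.00136 to 0.0346).

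Sel1l, the adaptor of the HRD1 ubiquitin ligase, read 8.02, 8.13 and 8.06 with camptothecin, against 7.94, 7.88 and 7.83 with DMSO. All camptothecin arrays were higher, by at least 0.08. The change of 0.19 (SE 0.07, limma adjusted p = 0.107) did not pass. It passed when dim clusters, those below the median of all clusters (6.28), were left out and fewer were tested (adjusted p = 0.0372), and turned to -0.06 with ribosomal centring.

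A comparison within each array is not moved by the scaling of whole arrays. For each gene the mean of the other 8 was subtracted on the same array, and only the shift of this difference between treatments was read, since levels of different genes are not comparable. For Dnajb9 the difference was -0.72, -0.57 and -0.72 with camptothecin, against -1.52, -1.40 and -1.41 with DMSO, a shift of 0.77. For Xbp1 it was -1.51, -1.42 and -1.61 with camptothecin, against -0.91, -0.93 and -1.01 with DMSO, a shift of -0.56. The treatments did not overlap in either, nor in any other of the 9 genes except Calr. The contrast was not computed for genes outside the set, so no share over all genes stands beside this. Because each gene is set against the others, the shifts of the 9 genes sum to zero by construction, and the rise of Dnajb9 and the other called genes is part of the negative shift of Xbp1, whose own values overlapped between treatments. The shifts therefore show unequal change within the set, and their signs do not show that a gene rose or fell.

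Genes with and without an ERSE were among those that rose. Of the 5 genes with the element Hspa5 and Calr rose, while Hsp90b1, Dnajc3 and Xbp1 did not pass. Dnajb9 and Pdia4, with none of the 3 elements in the window, rose, as did Herpud1 with ERSE-II. Among 11950 array genes with a window, 15 had an ERSE, of which 3 (20%) were called higher and 0 lower by limma, beside 11.4% higher and 9.44% lower among the genes without it. Besides Hspa5 and Calr the third was Creld2, an ER chaperone-like protein. The median log2 change of the 15 genes was 0.05, beside 0.06 for genes without the element. ERSE-II was in 13 array genes, of which 4 (30.8%) were called higher and 1 (7.69%) lower by limma. Among array genes without ERSE-II the shares were 11.4% higher and 9.43% lower. The median log2 change was 0.13 with ERSE-II, Herpud1 included, and 0.06 without it. Whether either element has a part in the changes was not tested.

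Genes of the set had spans of 4.46 to 44.3 kb in GRCr8. Of the 1632 genes of 100 kb or more, 34.9% were called lower and 1.84% higher, beside 9.35% lower and 11.3% higher among all genes. Among the 7848 genes whose span lay within the range of the set, 15.2% were called higher and 4.31% lower, and their median change was 0.10. Dnajc3 and Sel1l, the longest of the set at 43.0 and 44.3 kb, had changes of 0.05 and 0.19, while Xbp1 at 5.08 kb had -0.18. The part of span in these changes was not tested.

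**Figure D2:**
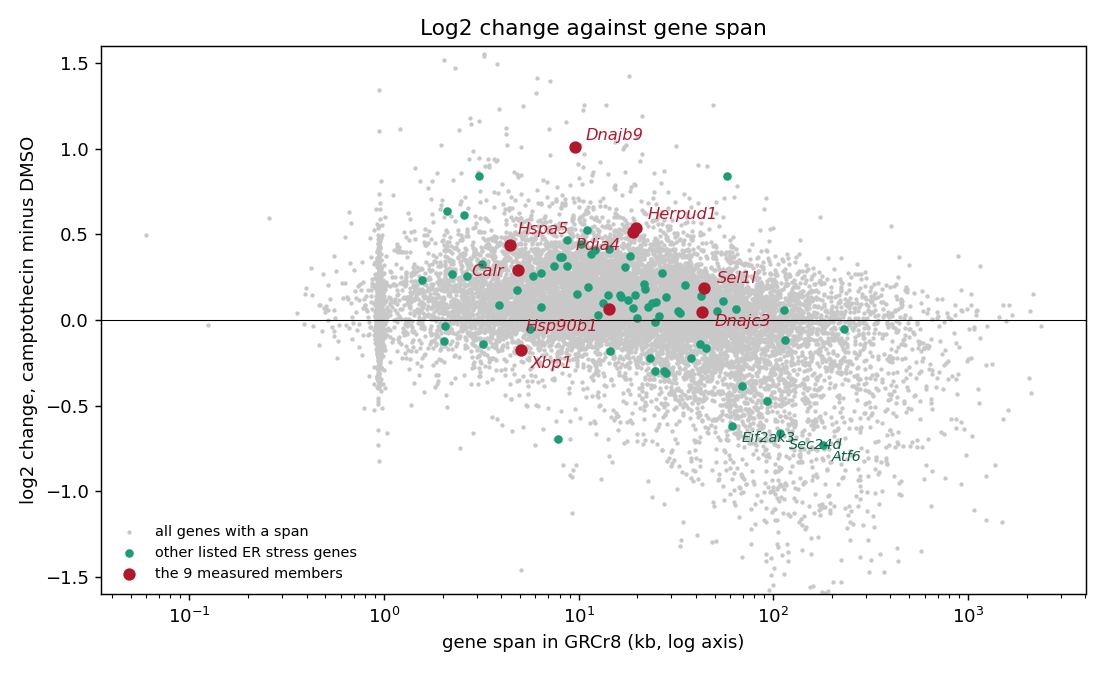
Log2 change, camptothecin minus DMSO (vertical axis), against gene span in kb on a log axis, for all genes (grey), the other listed ER stress genes (green) and the 9 measured genes (red). Dnajb9 lies above most genes of its span, the 9 genes span at most 44.3 kb, and Atf6 with a span of 180 kb is among the lower points; 28 genes beyond 1.6 in size are not drawn.

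Ern1, the gene of the upstream sensor IRE1, had no row under a single symbol and was not analysed here. Of 6 measured sensor and activator genes 1 rose (16.7%) and 2 fell (33.3%), beside 11.3% and 9.35% of all genes, and the median change was -0.12. Atf6 fell to 7.85, 7.94 and 7.89 with camptothecin, against 8.61, 8.62 and 8.63 with DMSO (-0.73, SE 0.06, limma adjusted p = 0.000514). The 2 groups lay far apart next to their spread, and Atf6 passed in all 14 alternatives. Eif2ak3, the gene of PERK, read 7.94, 8.34 and 8.30 with camptothecin, against 8.87, 8.80 and 8.75 with DMSO (-0.62, SE 0.12, adjusted p = 0.0134, and 0.0518 without DMSO replicate 1). Atf6b, a paralogue of Atf6, rose by 0.37 (SE 0.07, adjusted p = 0.0108, and 0.176 with ribosomal centring). Atf6 spans 180 kb and Eif2ak3 61.4 kb. Mbtps2, at 64.1 kb, had 0.06 and was not called, and was named after its value was seen.

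Of 19 other measured folding factors of the ER, 7 rose (36.8%), 1 fell (5.26%) and 11 were not called, beside 11.3% higher and 9.35% lower among all genes, and the median change was 0.21. The rises included Hyou1, an Hsp70-like exchange factor of BiP (0.41, SE 0.09), the disulphide isomerase P4hb (0.38, SE 0.07), Manf, a secreted ER stress protein (0.33, SE 0.09), Creld2 (0.31), the disulphide isomerase Pdia6 (0.31) and the dim Erp29 (0.28). With ribosomal centring all 6 lost the call (changes of 0.03 to 0.16, adjusted p from 0.113 to 0.726), and with median centring the 5 other than P4hb did (adjusted p from 0.0534 to 0.105). Of the 6, only P4hb kept its call whichever array was left out. Pdia6 and Erp29 lost it whichever array was left out, with an adjusted p of up to 0.111 and 0.141. Hyou1 lost it on leaving out camptothecin replicate 2 or 3 or a DMSO array (up to 0.0886), Manf on leaving out a camptothecin array or DMSO replicate 2 or 3 (up to 0.125), and Creld2 on leaving out camptothecin replicate 3 or DMSO replicate 1 or 3 (up to 0.0678). Erp44, a thioredoxin-family protein that retains client proteins in the ER, fell by 0.47 (SE 0.08, limma adjusted p = 0.00941) and has a span of 93.0 kb. The longer genes of this list were not called: Sil1 (232 kb, -0.05), Pdia5 (115 kb, -0.12) and Uggt1 (113 kb, 0.06). They were named after their values were seen. Sil1 and Pdia5 were dim, with means of 6.22 and 5.52 over the 6 arrays, where a fall is hard to see. The part of span in the changes of this list was not tested.

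In degradation, beside Herpud1, 1 of 17 measured genes rose (5.88%) and 0 fell, beside 11.3% and 9.35% of all genes, with a median change of 0.07 against 0.06 for all genes. The riser was Rnf5, a membrane ubiquitin ligase (0.61, SE 0.13, limma adjusted p = 0.0192, but 0.0579 without DMSO replicate 1 and 0.0659 without DMSO replicate 3). Syvn1, the gene of the ligase HRD1 that works with Sel1l, had 0.31 (SE 0.13, adjusted p = 0.14) and did not pass, and was named after its value was seen.

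Genes of protein entry into and exit from the ER went both ways, with 5 of 20 higher (25%) and 4 lower (20%), beside 11.3% and 9.35% of all genes, and a median of 0.12. Higher were Kdelr1 (0.52, SE 0.10) and Kdelr2 (0.37), receptors that return ER chaperones from the Golgi, the translocon subunits Sec61a1 (0.42) and Sec61b (0.37), and the translocon-associated Ssr2 (0.47). Lower were Sec24d (-0.66, SE 0.06) of the COPII coat, the translocation factors Sec63 (-0.38, SE 0.06) and Sec62 (-0.30), and the signal peptidase subunit Sec11a (-0.31). Sec24d and Sec63 passed in all 14 alternatives. With ribosomal centring the 5 higher genes all lost the call (changes of 0.12 to 0.28, adjusted p from 0.0617 to 0.256), and Kdelr2, Sec61a1 and Sec61b also lost it with median centring (adjusted p from 0.0548 to 0.0805). The 7 genes other than Sec24d and Sec63 also lost it with some arrays left out. Sec11a lost it whichever array was left out, with an adjusted p of up to 0.125. Kdelr1 lost it on leaving out DMSO replicate 2 (0.0551) and Ssr2 on leaving out a DMSO array (up to 0.0583). Kdelr2 lost it on leaving out camptothecin replicate 1 or 2 or DMSO replicate 2 or 3 (up to 0.0917). A DMSO array left out also ended the call of Sec61a1, Sec61b and Sec62, as did leaving out camptothecin replicate 2 or 3 for Sec61a1 (up to 0.0832), 1 or 2 for Sec61b (up to 0.109) and 3 for Sec62 (up to 0.0835).

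Of 11 measured genes of the PERK arm and integrated stress response, 3 rose (27.3%) and 1 fell (9.09%), beside 11.3% and 9.35% of all genes. Their median change was -0.01. Atf3 (0.84, SE 0.13), a stress transcription factor, Ppp1r15a (0.84, SE 0.12), the inducible subunit of the eIF2alpha phosphatase, and Ddit4 (0.64, SE 0.09), an inhibitor of mTORC1, were higher. Ppp1r15b, the constitutive counterpart of Ppp1r15a, fell by 0.69 (SE 0.11). Atf4, the central transcription factor of this arm, had -0.03 (SE 0.06, 95% interval -0.18 to 0.12) and Ddit3, the gene of CHOP, 0.18 (SE 0.11, adjusted p = 0.345), and both were named after their values were seen.

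**Figure D3:**
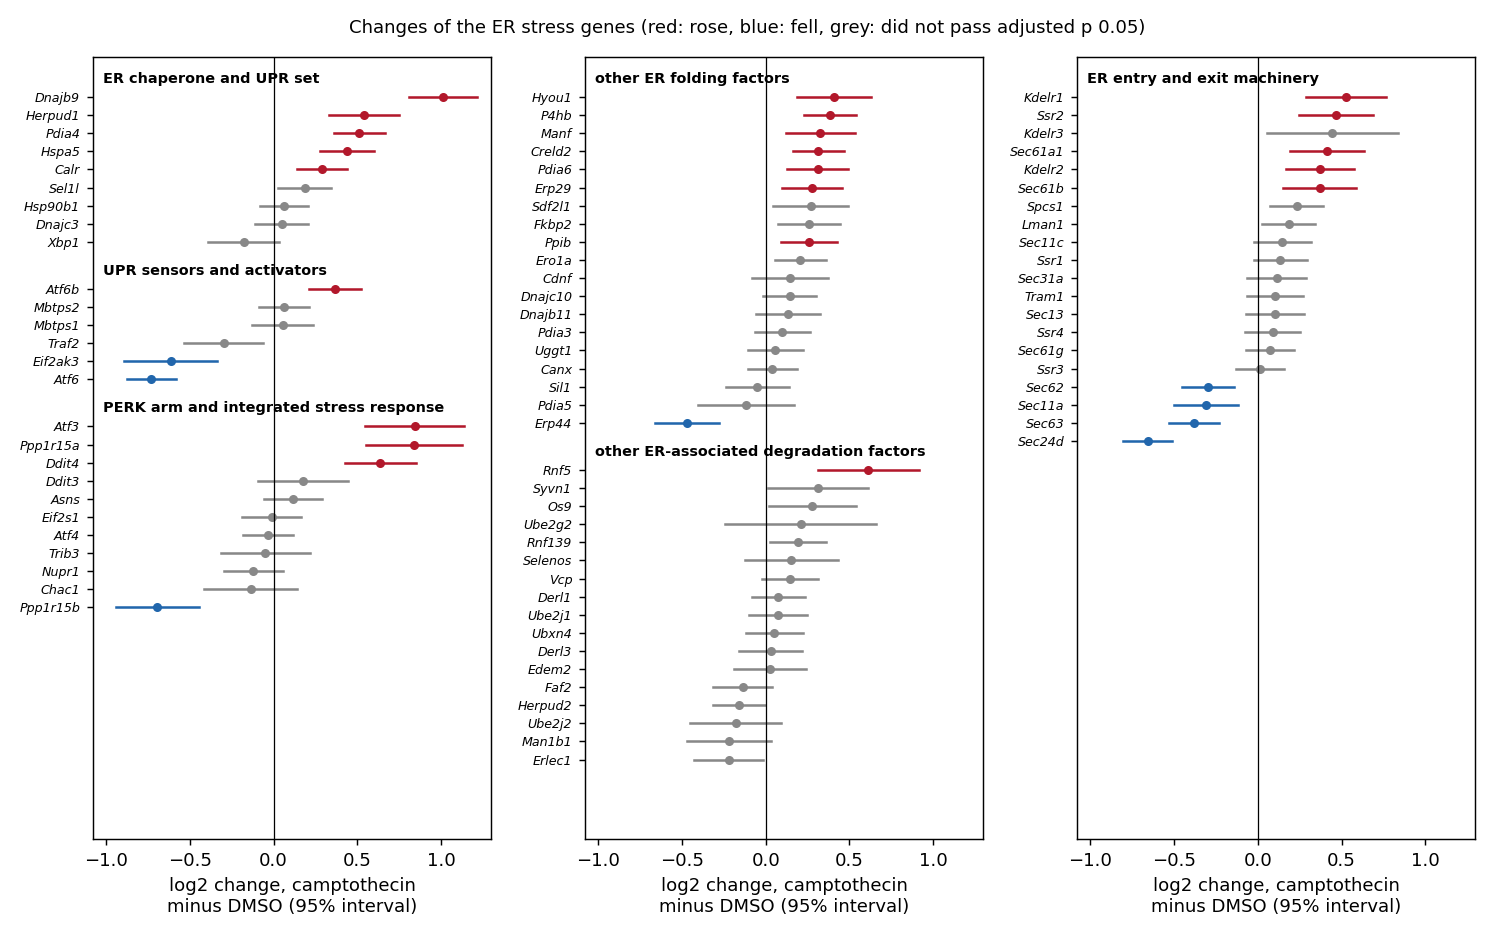
Log2 change, camptothecin minus DMSO (horizontal axis), with limma's 95% interval for each measured gene of the chaperone set and of 5 lists grouped by role. Red genes rose and blue genes fell at adjusted p under 0.05; Dnajb9 is the farthest right of the set, and Atf6 (-0.73) and Eif2ak3 (-0.62) lie left of zero.

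The scalings of the arrays differ in where a change of zero lies. Dnajb9 changed by 1.01 as deposited, 1.03 after quantile normalization again, 0.94 with median centring and 0.76 with ribosomal centring, and it passed in each. Pdia4 and Herpud1 also passed in each. Relative to the median change of all genes as deposited, the rises were 0.95 for Dnajb9, 0.48 for Herpud1, 0.45 for Pdia4, 0.38 for Hspa5 and 0.23 for Calr.

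**Figure D4:**
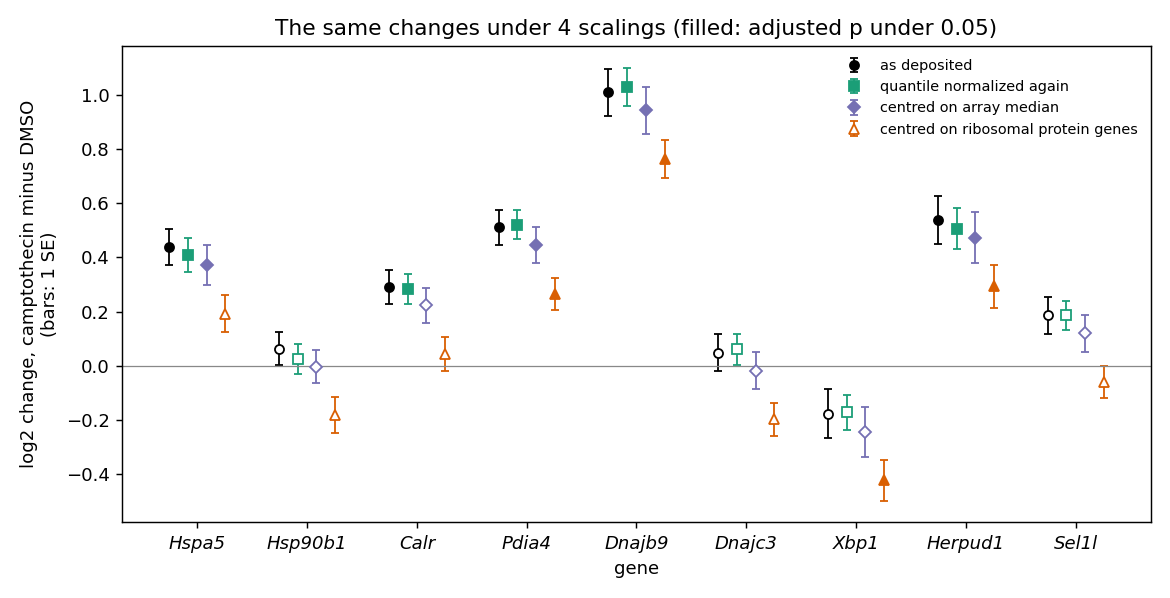
Log2 change, camptothecin minus DMSO, with limma's standard error for the 9 genes (horizontal axis) under each scaling, filled where adjusted p was under 0.05. Dnajb9, Pdia4 and Herpud1 are filled throughout, and Hspa5 and Calr lose the call with ribosomal centring (0.19 and 0.04). Calr also loses it with median centring (0.22), and Xbp1 is filled only with ribosomal centring (-0.42).

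The labelled cell type could be checked in part. Mnx1 and Chat had no row under a single symbol and were not analysed here, and Isl1 (5.50 with camptothecin, 5.77 with DMSO) and Slc18a3 (6.05 with camptothecin, 6.16 with DMSO) were dim. Of 7 measured motor neuron markers 4 were dim, 2 rose (28.6%, Nefh and Nefm, 0.59 and 0.42) and 0 fell. Among all genes 11.3% were called higher and 9.35% lower, which also stands beside the marker lists below. The other motor neuron markers were not called: Isl2 (0.09), Lhx3 (0.02), Slc18a3 (-0.11), Isl1 (-0.27) and Slc5a7 (-0.34), all dim but Lhx3. The mean level of the motor neuron markers was 6.64 to 6.80 with camptothecin and 6.64 to 6.66 with DMSO. None of 6 spinal interneuron markers was dim. Of these 5 fell (83.3%) and 0 rose, and their mean level was 8.61 to 8.70 with camptothecin, against 9.31 to 9.43 with DMSO. The 5 that fell span 40.1 to 91.2 kb, and Slc32a1, which was not called (0.23), spans 4.47 kb. Nefh and Nefm span 9.99 and 5.3 kb. The part of span in the marker changes was not tested. Of 8 progenitor and astroglial markers 1 fell (12.5%, Pax6, -0.58) and 0 rose, and of 7 fibroblast markers 1 fell (14.3%, Fn1, -0.36) and 0 rose. Progenitor and astroglial markers had mean levels of 7.89 to 8.04 with camptothecin and 7.93 to 8.02 with DMSO, and fibroblast markers 6.38 to 6.68 with camptothecin and 6.51 to 6.60 with DMSO. Of 3 oligodendrocyte and Schwann cell markers 1 fell (33.3%), and of 5 muscle markers 1 rose (20%). Of 8 endothelial, blood and microglial markers 0 were called by limma. In lists this short a single call makes a large share. In such bulk samples fewer cells of a type and less RNA per cell cannot be told apart. The part of cell makeup in the changes of the ER genes was not tested.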

How the data were processed

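RNA of 6 rat motor neuron cultures was measured on Affymetrix Rat Gene 1.0 ST arrays, 3 per treatment. The deposited values are log2 expression values per transcript cluster, made by the authors with RMA and oligo per the submitters' processing notes, which give no versions. The probes' genome build is not given in the sources used here. GEO's platform annotation gave 15310 of 29214 clusters a single symbol, and 15279 of those were updated through RefSeq. Promoter windows and spans are RefSeq's for GRCr8.

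Values were tested as deposited, camptothecin minus DMSO, two-sided, with limma 3.58.1 (lmFit, eBayes; R 4.3.3) and Benjamini-Hochberg adjustment over all clusters; the fit was tested on simulated data. Members, lists and alternatives were chosen with earlier results of these data known. Named pathway genes are the members, the 3 sensors and, per list, up to 6 called genes in each direction with the largest changes. Those said to be named after their values were seen are additional. Array medians were 6.31 to 6.33 with camptothecin and 6.22 to 6.28 with DMSO. The number of arrays limits the precision.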

Additional observations from a re-analysis of the deposited data

How the results depend on the processing

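The 14 alternatives were quantile normalization again, centring on the array median or on ribosomal protein genes, leaving out dim clusters, a replicate block, array weights, trended and robust eBayes, the mean over a gene's clusters, and each array left out. With ribosomal centring 3 members rose and 1 fell, against 5 and 0 as deposited, and 363 genes were higher and 4251 lower, against 1643 and 1356. Genes higher numbered 913 with median centring. Under ribosomal centring the changes were 0.19 for Hspa5, 0.044 for Calr, -0.18 for Hsp90b1, -0.20 for Dnajc3, -0.060 for Sel1l and -0.42 for Xbp1. Under median centring they were 0.22 for Calr (no longer called), -0.0026 for Hsp90b1 and -0.018 for Dnajc3. Sel1l kept 0.19 and passed without dim clusters, where fewer clusters are tested. With 1 array left out, Calr ran from 0.27 to 0.32 and lost its call in 5 of 6 such analyses, and genes higher from 665 to 1348. Causes were not tested.

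The replicate numbers did not pair the arrays: same-numbered arrays had correlations of deviations of -0.08, 0.02 and 0.08. With the replicate block 892 genes were higher and 1039 lower, 4 members rose, and Calr (0.29) had an adjusted p of 0.0732. Of 24 called pathway genes named outside the set, 8 were called in every alternative run for them, 16 lost the call at least once and 0 turned sign. Standard errors of 0.06 to 0.09 for the 9 genes limit the size of change that 3 arrays per treatment can show.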
